A study of Mus musculus with 15 samples.

Results

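The expression of 40 mouse genes of the autophagy machinery and its cargo receptors was followed in macrophages given silica nanoparticles. The genes were chosen by name from the steps of the pathway, with earlier results of these data known. All 40 stood among the 13342 genes of the count table. RNA sequencing had been done on 15 libraries of RAW264.7, a mouse macrophage line transformed by Abelson murine leukemia virus and used at passages 6 to 14. The groups of 3 libraries were cells given nonporous Stober silica of 50 nm (Stober50) or 500 nm (Stober500), mesoporous silica of 500 nm (MSN500), the same kind of mesoporous silica with a polyethylene glycol coat (MSN-PEG500), and untreated cells (Control). The dosage labels, which tie each dose to the LC50, carry the values 13.1 µg/ml for Stober50, 16.8 µg/ml for Stober500, 111.8 µg/ml for MSN500 and 84 µg/ml for MSN-PEG500. They leave unclear whether a value is the concentration given or the LC50. Each particle came with its own dosage, so the effects of particle and dosage cannot be told apart. One protocol gives an exposure of 24 h and another 4 h, so the time is uncertain. The question of the series was how nonporous and porous particles of silica differ in their effect on these cells. The line is a single transformed one. The labels give no separate cultures for the 3 libraries within a group, so the p-values rest on a spread among these samples that may be technical.

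Macroautophagy begins when the ULK kinase complex is released from mTORC1 and turns on a lipid kinase complex built on the protein of Becn1, which marks the membrane where a phagophore forms. The phagophore is seeded by vesicles that hold ATG9 and grows with lipid carried by ATG2 proteins. A ubiquitin-like conjugation system couples LC3 and GABARAP proteins to its membrane. Receptors such as p62, the product of Sqstm1, bind both ubiquitin-tagged cargo and LC3, and tethering proteins bring the closed autophagosome to the lysosome. In macrophages the same machinery acts on damaged endosomes and lysosomes and on engulfed particles and microbes. Messenger RNA does not measure the flow of cargo through this pathway.

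Library totals lay between 17683003 and 27253289 counts. All 9 macrophage markers were in the table, with summed levels of 17760 to 17892 CPM (counts scaled to library size) in Stober50, 18057 to 18661 CPM in Stober500, 16030 to 16570 CPM in MSN500, 15102 to 16277 CPM in MSN-PEG500 and 16886 to 17457 CPM in Control. Of the other marker lists, 1 of 6 fibroblast, 2 of 7 lymphocyte, 0 of 5 epithelial and 1 of 7 erythroid and granulocyte genes were in the table. On the second principal component of log2 CPM, MSN-PEG500 replicate 3 stood apart at -19.1, against -4.85 and -3.48 in the other libraries of its group, and results that turn on it are given with and without it.

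At baseline the 40 genes spanned most of the expression range of the cells. Their median level was 8.72 FPKM (fragments scaled by exonic length and library size) in Control, against 8.03 FPKM over all genes of the table. Gabarap stood highest at 135 ± 2.74 FPKM in Control, followed by Sqstm1 at 122 ± 3.34 FPKM (mean ± SD, n = 3). Uvrag and Gabarapl1 came next at 50.5 ± 2.71 and 50.2 ± 1.09 FPKM, levels that did not differ beyond their spread. The lowest were Wipi1 at 1.66 ± 0.179 FPKM and Optn at 0.0506 ± 0.0358 FPKM. All 40 genes passed the filter on low counts, Optn through the groups in which it was high.

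**Figure D1:**
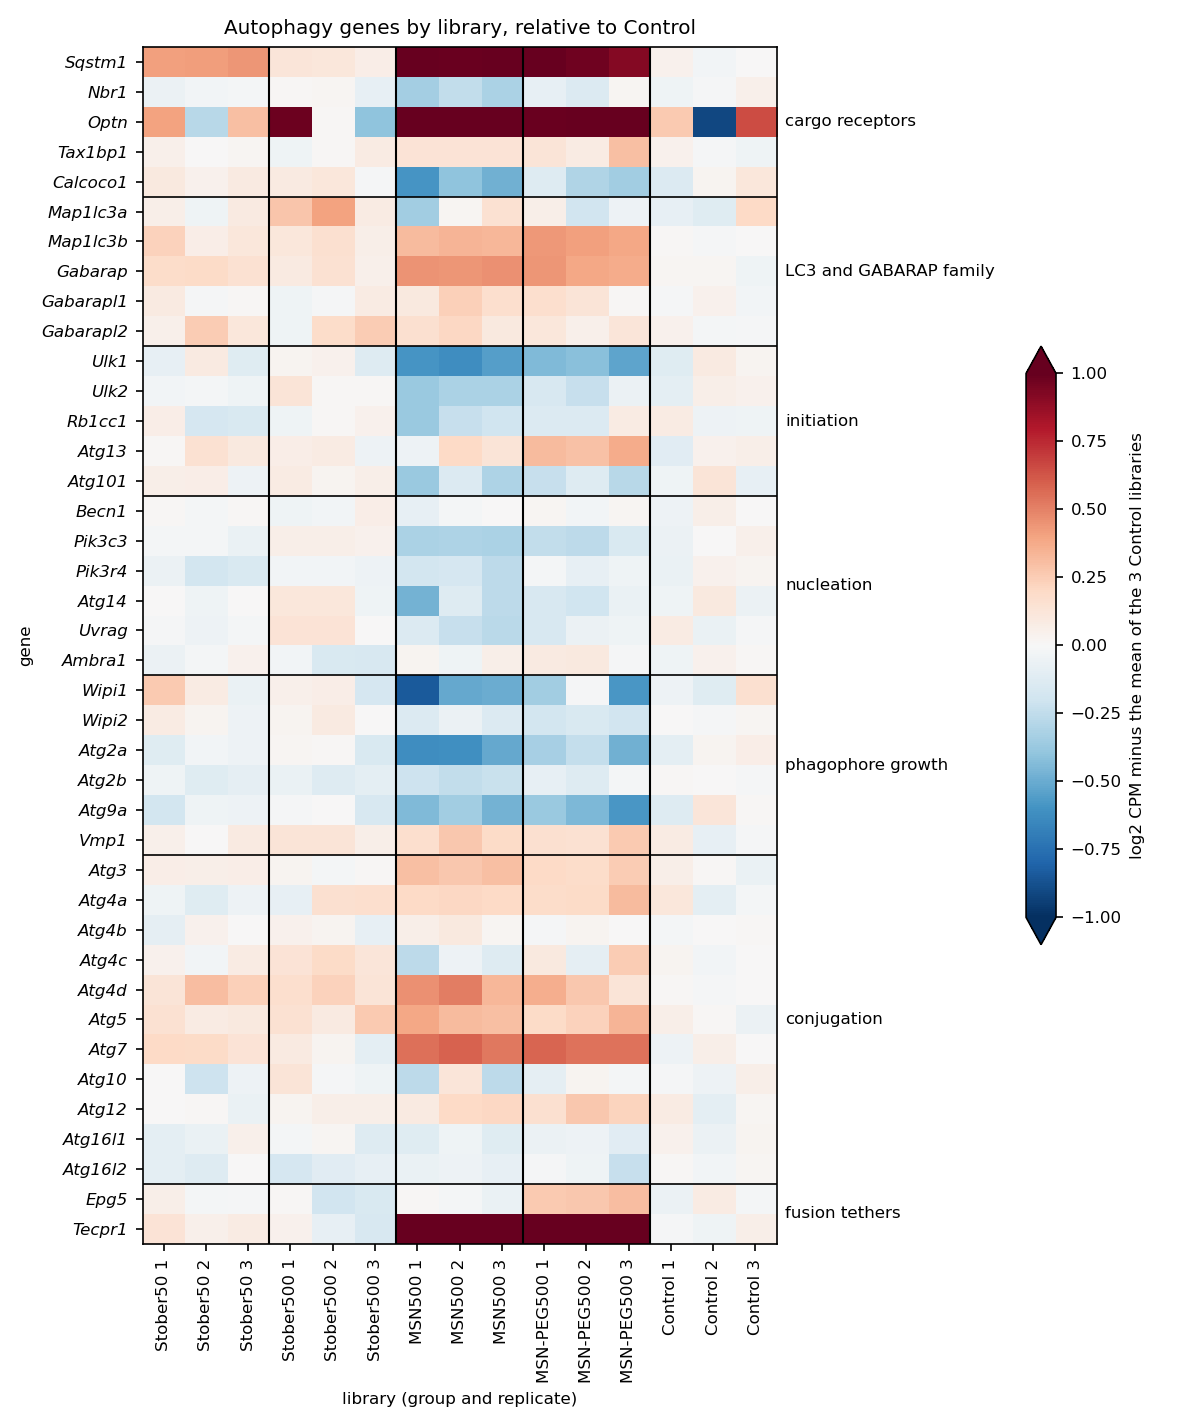
Log2 CPM of each of the 40 genes (rows, by step of the pathway) in each of the 15 libraries (columns), minus the mean of the 3 Control libraries, with the colour scale held between -1 and 1. Sqstm1 and Tecpr1 were high in all 6 libraries of mesoporous particles, and Ulk1, Atg2a and Atg9a were low in the same 6.

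Mesoporous silica changed most of the set, in both directions. With MSN500, 28 of the 40 genes differed from Control by the quasi-likelihood test of edgeR (Benjamini-Hochberg adjusted p under 0.05), which gave every adjusted p below. Of these, 13 rose and 15 fell (27 of 39 without Optn, 12 up and 15 down). Of all 12798 genes tested, the background was 42.9%, with 21.6% higher and 21.2% lower. The median log2 fold change was -0.03 over the 40 genes and -0.00 over all genes. In 33 of 40 genes the MSN500 and Control libraries did not overlap, against 52.8% of all genes. With MSN-PEG500, 15 rose and 8 fell, 23 of 40 against a background of 34.4% (17.5% higher and 16.9% lower), or 22 of 39 without Optn. The groups did not overlap in 24 of 40 genes against 42.7% of all genes. Changes of at least 1.5-fold were made by 5 of 40 genes with MSN500 (background 8.85%) and by 3 of 40 with MSN-PEG500 (background 6.81%). Optn, given below with no test, is included in the 5 and the 3, and in the 33 and 24 genes without overlap. Both comparisons share the Control libraries. In these bulk samples fewer cells of a type and less RNA per cell cannot be told apart.

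By step of the pathway, the counts with MSN500 were as follows, beside 21.6% of all genes called higher and 21.2% called lower. The 5 cargo receptors gave 3 rises and 2 falls, the 5 LC3 and GABARAP genes 3 rises and 0 falls, and the 11 conjugation genes 5 rises and 0 falls. Upstream, the 5 initiation genes gave 0 rises and 4 falls, the 6 nucleation genes 0 and 4, and the 6 phagophore growth genes 1 and 5. Of the 2 fusion tethers, 1 rose. With MSN-PEG500 the counts of rises and falls were 3 and 1 for receptors and 2 and 0 for LC3 and GABARAP genes. They were 6 and 0 for conjugation, 1 and 3 for initiation and 0 and 1 for nucleation. Phagophore growth gave 1 and 3, and tethers 2 and 0. Over all genes, 17.5% were called higher and 16.9% lower with MSN-PEG500. The receptor rises include Optn, given below with no test. Without it the receptors gave 2 rises and 2 falls with MSN500 and 2 and 1 with MSN-PEG500.

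Apart from Optn, which had at most 19 counts in a library, the largest change was in Tecpr1, which encodes a tether that binds the conjugate of ATG5 and ATG12 and joins autophagosomes to lysosomes. Its level was 93.6, 95.6 and 89.6 CPM in MSN500 and 72.9, 75.5 and 88.3 CPM in MSN-PEG500, against 25.5, 25 and 26.8 CPM in Control. All 6 libraries of mesoporous particles stood far above all 3 Control libraries. It rose with MSN500 (log2 1.85 ± 0.06 SE, adjusted p = 4.83e-18) and with MSN-PEG500 (log2 1.61 ± 0.06 SE, adjusted p = 1.25e-16). In FPKM this took Tecpr1 to 9.36 ± 0.31 in MSN500 and 8.01 ± 0.858 in MSN-PEG500, against 2.72 ± 0.105 in Control, so a gene well below the 8.72 FPKM median of the set in Control stood close to that value. Epg5, a second tether that binds RAB7 on late endosomes and lysosomes, had 27.8, 27.3 and 26.4 CPM in MSN500 and 33.1, 33.3 and 34.4 CPM in MSN-PEG500, against 26.6, 29.2 and 27.4 CPM in Control. Only the MSN-PEG500 libraries lay above Control, and Epg5 rose there (log2 0.28 ± 0.06 SE, adjusted p = 0.000556), while with MSN500 the log2 fold change was -0.03 (adjusted p = 0.736).

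Among the cargo receptors Sqstm1, which encodes p62, had 825, 796 and 826 CPM in MSN500 and 816, 786 and 759 CPM in MSN-PEG500, against 410, 391 and 400 CPM in Control. Both mesoporous groups lay far above Control with no overlap (log2 1.03 ± 0.04 SE, adjusted p = 9.23e-18 for MSN500, and log2 0.98 ± 0.04 SE, adjusted p = 5.58e-17 for MSN-PEG500). Tax1bp1, a receptor that also recruits the initiation machinery to ubiquitin-tagged cargo, had 194, 194 and 195 CPM in MSN500 and 194, 187 and 217 CPM in MSN-PEG500, against 182, 176 and 172 CPM in Control. The groups did not overlap and the rises were small, at log2 0.14 ± 0.05 (adjusted p = 0.0154, and 0.0697 without Control replicate 3) and 0.18 ± 0.05 (adjusted p = 0.00327). Optn, which encodes optineurin, was close to the detection limit, with 19, 14 and 17 counts in MSN500 and 9, 11 and 13 counts in MSN-PEG500, against 5, 1 and 6 counts in Control. Its fitted log2 fold changes were 2.10 ± 0.45 for MSN500 and 1.61 ± 0.50 for MSN-PEG500. Since Optn passed the filter on low counts only through these groups, the values are a description with no test, and the 4 receptors without it gave 2 rises and 2 falls with MSN500 and 2 and 1 with MSN-PEG500.

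The other receptors, Nbr1 and Calcoco1, fell with MSN500. Nbr1, whose product shares the domain layout of p62 and takes part in the clearance of protein aggregates and peroxisomes, had 89.7, 95.3 and 91.4 CPM in MSN500 and 108, 104 and 115 CPM in MSN-PEG500, against 111, 113 and 118 CPM in Control. Only the MSN500 libraries lay wholly below Control, and Nbr1 fell there (log2 -0.30 ± 0.04 SE, adjusted p = 2.68e-06), while in MSN-PEG500 the log2 fold change was -0.06 (adjusted p = 0.299). Calcoco1, which encodes a receptor for endoplasmic reticulum and Golgi membranes, had 14.2, 16.2 and 15.3 CPM in MSN500 and 19.6, 17.4 and 16.8 CPM in MSN-PEG500, against 19.5, 21.9 and 23.3 CPM in Control. MSN500 was below every Control library (log2 -0.49 ± 0.08 SE, adjusted p = 6.74e-06). MSN-PEG500 overlapped Control by a narrow margin and passed the test (log2 -0.25 ± 0.07 SE, adjusted p = 0.00897), but not without MSN-PEG500 replicate 3 (adjusted p = 0.0507) or Control replicate 3 (adjusted p = 0.0655).

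Of the ubiquitin-like proteins that are coupled to the phagophore membrane, Gabarap and Map1lc3b rose with both mesoporous particles. Gabarap had 333, 330 and 334 CPM in MSN500 and 329, 319 and 313 CPM in MSN-PEG500, against 247, 246 and 237 CPM in Control, with no overlap (log2 0.45 ± 0.04 SE, adjusted p = 9.19e-11 for MSN500, and log2 0.40 ± 0.04 SE, adjusted p = 1.25e-09 for MSN-PEG500). Map1lc3b, which encodes LC3B, the usual marker protein of autophagosomes, had 52.5, 53.2 and 53 CPM in MSN500 and 56.9, 56 and 55.3 CPM in MSN-PEG500, against 42.4, 41.9 and 42.1 CPM in Control. Here too the groups did not overlap (log2 0.33 ± 0.05 SE, adjusted p = 2.9e-06 and log2 0.41 ± 0.05 SE, adjusted p = 1.03e-07). Of its 50-base sequence words, 6.01% also occur in other genes of the annotation. That share was higher for other members, such as Gabarapl2 (12.2%), Sqstm1 (15.5%), Uvrag (17.4%), Gabarapl1 (23.1%) and Becn1 (36.8%). Gabarapl1 had 93.1, 103 and 98.1 CPM in MSN500 and 97.6, 95.2 and 87.5 CPM in MSN-PEG500, against 86.6, 89.3 and 84.9 CPM in Control. It rose with MSN500 (log2 0.17 ± 0.05 SE, adjusted p = 0.0044). With MSN-PEG500 the libraries overlapped Control, and the difference passed only without MSN-PEG500 replicate 3 (adjusted p = 0.0986 with it and 0.0183 without it). Map1lc3a (log2 -0.04 ± 0.12 with MSN500 and -0.05 ± 0.12 with MSN-PEG500) and Gabarapl2 (0.15 ± 0.08 and 0.10 ± 0.09) did not pass the test with either particle. In Control these genes differed widely in level per length, with 135 ± 2.74 FPKM for Gabarap, 50.2 ± 1.09 for Gabarapl1, 6.83 ± 0.881 for Map1lc3a, 5.72 ± 0.0572 for Map1lc3b and 4.84 ± 0.119 for Gabarapl2. The exonic length used was 7517 bases for Map1lc3b and 1181 for Map1lc3a. In CPM their order was the reverse, at 42.1 ± 0.282 for Map1lc3b and 7.9 ± 0.999 for Map1lc3a in Control, so it depends on the scaling by length.

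Of the 11 genes that load LC3 and GABARAP onto membranes, 5 rose with MSN500 and 6 with MSN-PEG500, and 0 fell. That is 45.5% of them called with MSN500 and 54.5% with MSN-PEG500, against 42.9% and 34.4% of all genes. Atg7, the activating enzyme of both conjugation reactions, had 95.3, 98 and 93.9 CPM in MSN500 and 97.1, 94.4 and 94.1 CPM in MSN-PEG500, against 62.5, 67.5 and 64.8 CPM in Control. No library of the mesoporous groups came near the Control range (log2 0.56 ± 0.05 SE, adjusted p = 1.28e-10 for MSN500, and log2 0.55 ± 0.05 SE, adjusted p = 2.37e-10 for MSN-PEG500). Atg3, the conjugating enzyme that passes LC3 to its lipid, had 115, 112 and 115 CPM in MSN500 and 107, 106 and 111 CPM in MSN-PEG500, against 97.1, 94 and 88.8 CPM in Control, again without overlap (log2 0.29 ± 0.04 SE, adjusted p = 1.15e-06 and log2 0.21 ± 0.04 SE, adjusted p = 0.000141). Atg5, which forms with ATG12 the conjugate that directs LC3 lipidation, had 70.7, 67.2 and 66.6 CPM in MSN500 and 61.5, 63.2 and 68.1 CPM in MSN-PEG500, against 56.2, 54.2 and 51.6 CPM in Control (log2 0.33 ± 0.05 SE, adjusted p = 5.4e-06 and log2 0.25 ± 0.05 SE, adjusted p = 0.000345). The mesoporous libraries were again above all Control libraries.

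Its partner Atg12 rose by less, with a log2 fold change of 0.17 ± 0.05 for MSN500 (adjusted p = 0.00833, and 0.075 without Control replicate 2) and 0.21 ± 0.05 for MSN-PEG500 (adjusted p = 0.00179). Among the ATG4 proteases, which trim LC3 proteins before and after use, Atg4d had 25.7, 26.6 and 23.4 CPM in MSN500 and 23.8, 22.3 and 20.3 CPM in MSN-PEG500, against 18.7, 18.5 and 18.6 CPM in Control. It rose with both (log2 0.44 ± 0.07 SE, adjusted p = 8.19e-06, and log2 0.26 ± 0.07 SE, adjusted p = 0.00542, the second lost without MSN-PEG500 replicate 1 at adjusted p = 0.0597). Kri1 overlaps 19.3% of the exonic bases of Atg4d on the opposite strand with more counts, and whether counting used strand is not given. Kri1 itself had 76.6 ± 0.0924 CPM in MSN500 and 80.7 ± 4.34 CPM in Control (adjusted p = 0.257). Atg4a passed narrowly with MSN-PEG500 (log2 0.23 ± 0.09 SE, adjusted p = 0.0418) and failed with upper quartile scaling (adjusted p = 0.075), with DESeq2 (0.0791), with only the groups compared (0.0617), without MSN-PEG500 replicate 1 (0.0509), MSN-PEG500 replicate 2 (0.0549), MSN-PEG500 replicate 3 (0.163), Control replicate 2 (0.174) or else Control replicate 3 (0.0939). Of its 50-base sequence words, 51.2% occur in another gene. Atg4b, Atg4c, Atg10, Atg16l1 and Atg16l2 did not pass the test with either mesoporous particle, and their log2 fold changes lay between -0.14 and 0.10.

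Promoter windows of 300 bases (250 before to 50 after the annotated start, RefSeq on GRCm38.p6) were at hand for 33 of the 40 genes and were searched on both strands for 5 motifs. TCACGTG, the core of the CLEAR element that TFEB and related factors are known to bind, was in the windows of Atg14, Atg3 and Atg7, 9.09% of 33, and in 4.29% of 27025 genes. The shorter CACGTG, which lies within it, was in 12.1% of the members' windows, with Atg5 added, and in 8.09% of all genes. The windows of the genes with the 7-base motif are shown because 2 of them, Atg3 and Atg7, rose together, and those of Sqstm1 and Tecpr1 because, Optn apart, these rose most. Capitals mark TCACGTG on either strand.
Atg3, chr16:45158579-45158878, plus strand: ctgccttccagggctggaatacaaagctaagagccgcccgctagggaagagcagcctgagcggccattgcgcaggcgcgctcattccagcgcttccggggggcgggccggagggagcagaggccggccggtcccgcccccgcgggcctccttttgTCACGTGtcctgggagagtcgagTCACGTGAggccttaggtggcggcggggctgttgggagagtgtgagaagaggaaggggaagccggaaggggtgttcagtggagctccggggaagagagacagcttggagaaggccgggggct
Atg7, chr6:114670846-114671145, plus strand: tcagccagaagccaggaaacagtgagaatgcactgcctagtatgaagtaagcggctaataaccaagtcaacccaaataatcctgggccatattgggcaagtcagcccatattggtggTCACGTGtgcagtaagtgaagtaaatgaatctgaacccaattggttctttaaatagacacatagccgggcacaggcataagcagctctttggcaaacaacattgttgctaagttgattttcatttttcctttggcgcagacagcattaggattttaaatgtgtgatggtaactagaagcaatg
Atg14, chr14:47568385-47568684, minus strand: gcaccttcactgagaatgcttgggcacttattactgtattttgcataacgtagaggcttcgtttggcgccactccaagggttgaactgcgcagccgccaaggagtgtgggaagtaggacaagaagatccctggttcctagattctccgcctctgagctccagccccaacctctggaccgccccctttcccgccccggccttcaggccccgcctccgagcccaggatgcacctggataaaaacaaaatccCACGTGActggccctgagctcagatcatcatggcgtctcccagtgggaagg
Sqstm1, chr11:50210771-50211070, minus strand: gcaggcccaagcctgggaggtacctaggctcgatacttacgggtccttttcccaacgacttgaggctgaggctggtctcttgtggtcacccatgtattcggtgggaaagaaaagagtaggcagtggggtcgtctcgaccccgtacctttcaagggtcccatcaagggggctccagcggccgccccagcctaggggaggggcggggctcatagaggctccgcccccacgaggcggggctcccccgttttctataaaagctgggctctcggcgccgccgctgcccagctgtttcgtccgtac
Tecpr1, chr5:144223566-144223865, minus strand: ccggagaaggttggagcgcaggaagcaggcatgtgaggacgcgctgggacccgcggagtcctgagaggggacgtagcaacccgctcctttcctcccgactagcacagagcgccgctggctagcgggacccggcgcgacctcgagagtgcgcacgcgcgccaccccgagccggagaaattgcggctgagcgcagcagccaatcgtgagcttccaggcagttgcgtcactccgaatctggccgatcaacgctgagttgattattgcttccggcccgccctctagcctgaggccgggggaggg
With the base before the start counted as -1, the matches begin at -95, -72 and -71 in Atg3, the last of which overlap on opposite strands, at -133 in Atg7 and at -1 in Atg14. The RefSeq start used for Atg7 lies 27999 bases inside the gene as deposited. Neither Sqstm1 nor Tecpr1 has the motif in this window. Of the other motifs, TGACNNNGC, the core of the antioxidant response element, was in 15.2% of the members' windows (Tax1bp1, Map1lc3b, Ulk2, Atg13 and Vmp1) and in 14% of all genes. TGATGCAA, a site for ATF4 with CHOP, and GTAAACA, a FOXO site, were in 0 of 33 windows, and in 1.03% and 4.05% of all genes. Atg14 carries the motif and fell with MSN500, so genes with a match moved in both directions.

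**Figure D2:**
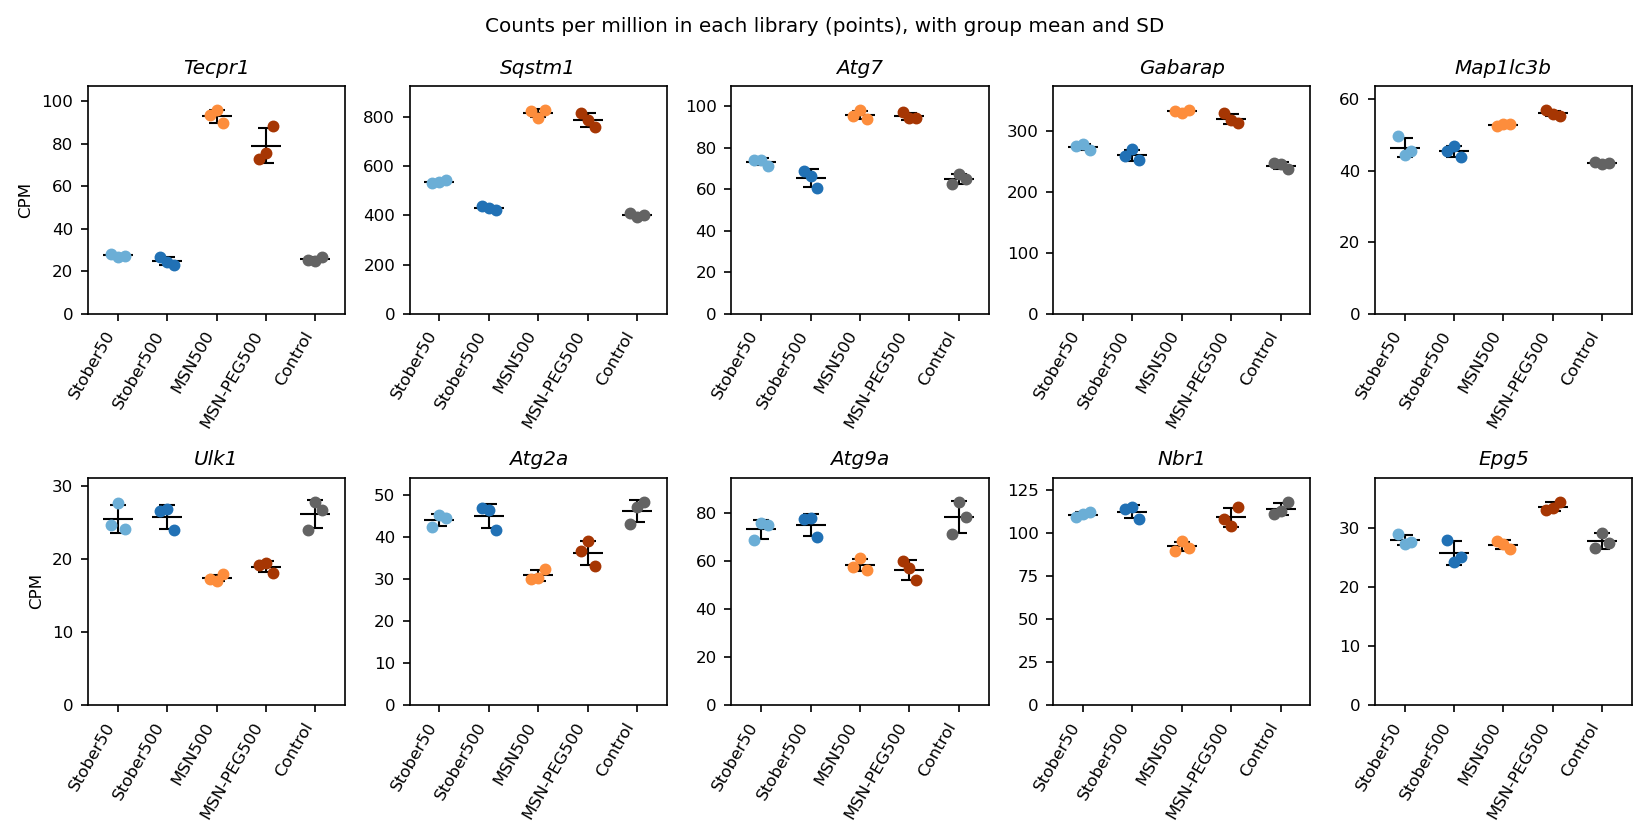
Level in CPM of 10 genes in the 3 libraries of each group (points), with the group mean and SD (bars). Tecpr1, Sqstm1, Atg7, Gabarap and Map1lc3b (upper row) were higher in MSN500 and MSN-PEG500 than in Control, while Ulk1, Atg2a and Atg9a were lower in both, Nbr1 was lower in MSN500 and Epg5 was higher in MSN-PEG500.

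Of the 5 initiation genes, 4 fell with MSN500, against 21.2% of all genes. Ulk1, the kinase that starts the pathway, had 17.3, 17 and 17.9 CPM in MSN500 and 19.2, 19.5 and 18.1 CPM in MSN-PEG500, against 24, 27.8 and 26.7 CPM in Control. All mesoporous libraries were below all Control libraries (log2 -0.59 ± 0.07 SE, adjusted p = 1.89e-07 for MSN500, and log2 -0.46 ± 0.07 SE, adjusted p = 9.44e-06 for MSN-PEG500). Its paralog Ulk2 had 41.7, 42.9 and 43.2 CPM in MSN500 and 48.2, 45.9 and 51.7 CPM in MSN-PEG500, against 50.3, 56 and 55.1 CPM in Control. It fell with MSN500 (log2 -0.33 ± 0.05 SE, adjusted p = 8.23e-06), and with MSN-PEG500 only narrowly and with overlap (log2 -0.14 ± 0.05, adjusted p = 0.0327), a call lost with DESeq2 (adjusted p = 0.0569), with only the groups compared (0.106), without MSN-PEG500 replicate 1 (0.089), MSN-PEG500 replicate 2 (0.156), Control replicate 2 (0.151) or else Control replicate 3 (0.107). Rb1cc1, the scaffold known as FIP200, had 28.6, 31.6 and 32.4 CPM in MSN500 and 39.3, 35.8 and 36.2 CPM in Control, groups that did not overlap (log2 -0.27 ± 0.07 SE, adjusted p = 0.00287). That call was lost when a trend with gene length was removed (adjusted p = 0.0906). Atg101, a small subunit of the complex, fell with MSN500 (log2 -0.27 ± 0.07 SE, adjusted p = 0.00139) and with MSN-PEG500 (log2 -0.22 ± 0.07 SE, adjusted p = 0.0121), the second lost without MSN-PEG500 replicate 3 (adjusted p = 0.0506) or Control replicate 2 (adjusted p = 0.114).

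Atg13, the adaptor of the complex through which mTORC1 acts, was not called with MSN500. It had 105, 124 and 119 CPM in MSN500 and 135, 132 and 140 CPM in MSN-PEG500, against 101, 112 and 113 CPM in Control. The MSN-PEG500 libraries lay above all others, and Atg13 rose there (log2 0.32 ± 0.06 SE, adjusted p = 5.45e-05), while with MSN500 the log2 fold change was 0.10 ± 0.06 (adjusted p = 0.165).

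In the lipid kinase complex of nucleation, Pik3c3, the catalytic subunit, had 50, 50.3 and 49.8 CPM in MSN500 and 52.4, 52.1 and 56.2 CPM in MSN-PEG500, against 59.9, 62.5 and 64.7 CPM in Control. The groups did not overlap (log2 -0.32 ± 0.04 SE, adjusted p = 1.82e-06 and log2 -0.22 ± 0.04 SE, adjusted p = 0.00035). Its regulatory partner Pik3r4, and Atg14 and Uvrag, the exchangeable subunits that direct the complex to early or late steps, fell with MSN500 by 0.20, 0.28 and 0.21 on the log2 scale (adjusted p = 0.00223, 0.00527 and 0.000478). The call of Atg14 was lost without MSN500 replicate 1 (adjusted p = 0.0717). With MSN-PEG500 these 3 genes had log2 fold changes of -0.04, -0.15 and -0.09 and did not pass. Becn1, the core of the complex, and Ambra1, which regulates it, passed in no particle comparison with Control; Becn1 had 115, 120 and 122 CPM in MSN500 and 124, 119 and 123 CPM in MSN-PEG500, against 117, 127 and 121 CPM in Control.

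Of the 6 genes of phagophore growth, 5 fell with MSN500, against 21.2% of all genes. Atg2a, which encodes a lipid transfer protein, had 30, 30.2 and 32.3 CPM in MSN500 and 36.6, 38.9 and 33.1 CPM in MSN-PEG500, against 43.1, 47 and 48.3 CPM in Control (log2 -0.58 ± 0.06 SE, adjusted p = 2.02e-08 for MSN500, and log2 -0.35 ± 0.06 SE, adjusted p = 5.71e-05 for MSN-PEG500). The 3 groups followed one another without overlap, MSN500 lowest. Atg9a, the lipid scramblase of the vesicles that seed the phagophore, had 57.6, 61.3 and 56.4 CPM in MSN500 and 60.2, 57.1 and 52 CPM in MSN-PEG500, against 71.3, 84.6 and 78.5 CPM in Control, both wholly below Control (log2 -0.42 ± 0.06 SE, adjusted p = 6.1e-06 and log2 -0.47 ± 0.06 SE, adjusted p = 1.94e-06). An overlapping gene model on the same strand shares 31.8% of its exonic bases. Wipi1, which binds the lipid made by the nucleation complex, had 3.95, 5.02 and 5.05 CPM in MSN500 and 5.61, 7.1 and 4.75 CPM in MSN-PEG500, against 6.94, 6.6 and 8.04 CPM in Control. It fell with MSN500 (log2 -0.61 ± 0.14 SE, adjusted p = 0.000731), whereas the MSN-PEG500 libraries overlapped Control (log2 -0.31, adjusted p = 0.0761).

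Its relative Wipi2, which recruits the LC3 conjugation machinery, fell with MSN-PEG500 (log2 -0.17 ± 0.04 SE, adjusted p = 0.00256). With MSN500 its log2 fold change was -0.11 ± 0.04 (adjusted p = 0.0358), a call lost with no filter on low counts (adjusted p = 0.0696), with DESeq2 (0.0532), with the trend with gene length removed (0.413), without MSN500 replicate 1 (0.153), MSN500 replicate 3 (0.195), Control replicate 1 (0.0657), Control replicate 2 (0.0553) or else Control replicate 3 (0.0948). Atg2b fell with MSN500 (log2 -0.23 ± 0.04 SE, adjusted p = 7.17e-05) and had a log2 fold change of -0.08 with MSN-PEG500 (adjusted p = 0.156). Vmp1, which encodes a membrane scramblase of the endoplasmic reticulum, was the 1 gene of this step that rose. It had 106, 114 and 108 CPM in MSN500 and 106, 105 and 113 CPM in MSN-PEG500, against 100, 89.9 and 94.3 CPM in Control, without overlap (log2 0.21 ± 0.05 SE, adjusted p = 0.000592 and log2 0.19 ± 0.05 SE, adjusted p = 0.0021).

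**Figure D3:**
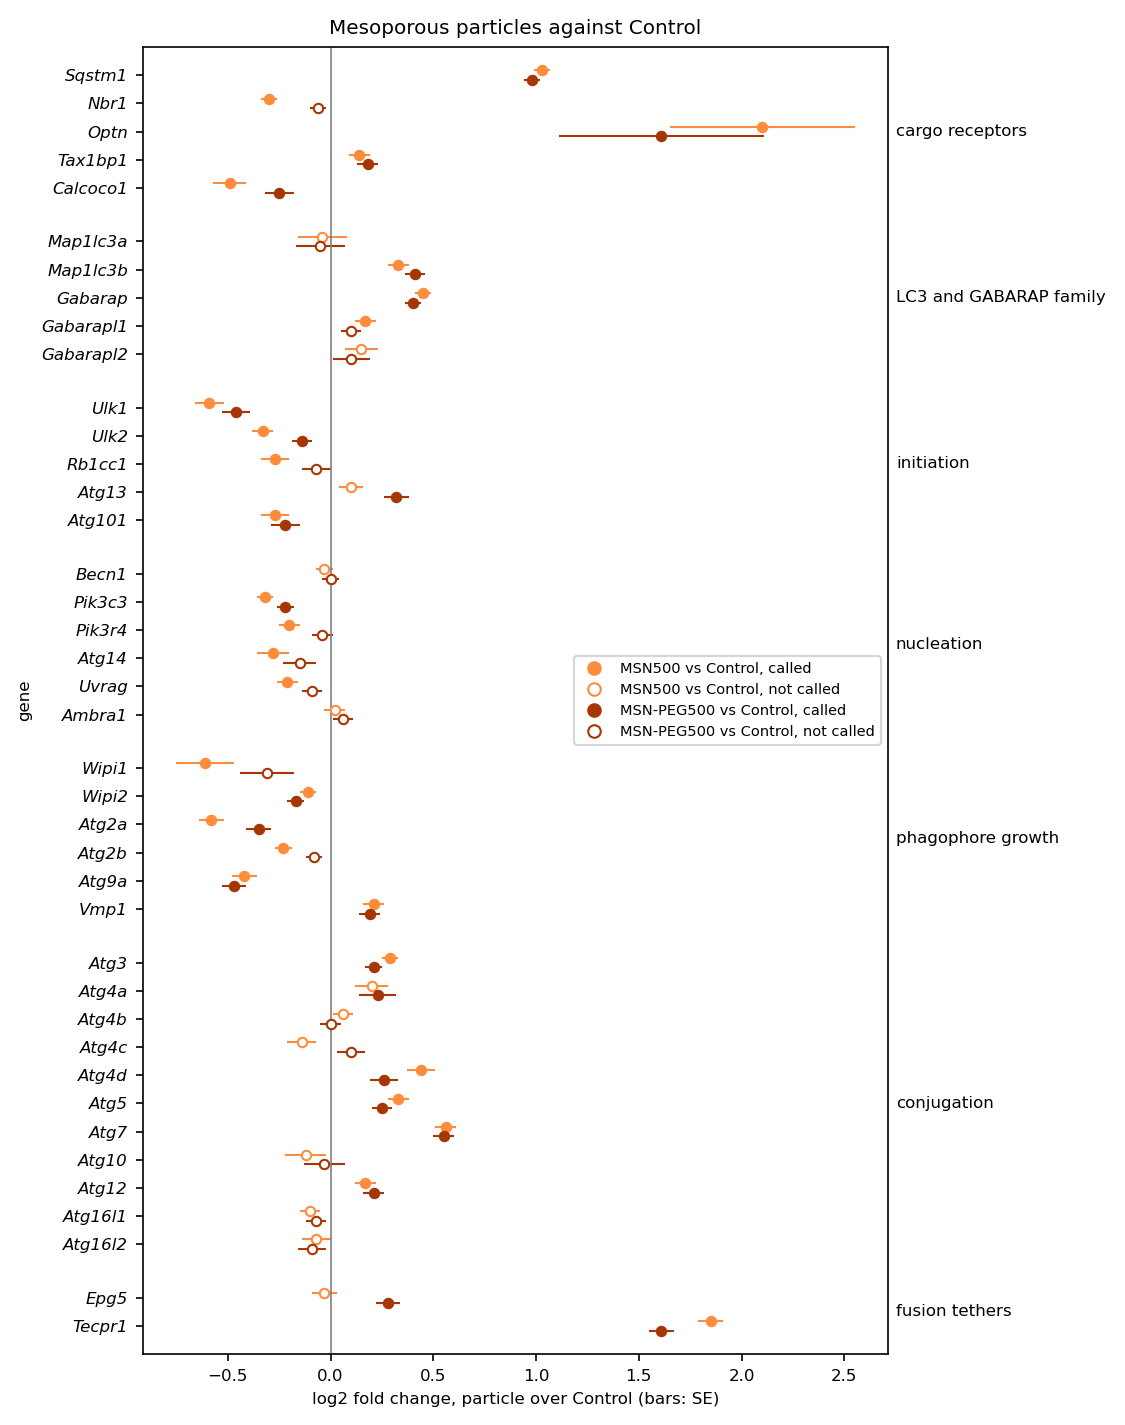
Log2 fold change of each of the 40 genes with MSN500 and with MSN-PEG500 over Control, by step (bars are SE, filled points passed the test, Optn aside). Optn, drawn filled at 2.10 and 1.61, is a description with no test. Tecpr1 stood at 1.85 and 1.61, Sqstm1 at 1.03 and 0.98, and Ulk1 at -0.59 and -0.46.

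Nonporous particles changed a small share of these genes and of all genes tested. With Stober50, 4 of 40 genes rose and 0 fell, against a background of 7.57% of all genes (3.85% higher and 3.72% lower), and the groups did not overlap in 9 of 40 genes against 27.4% of all genes. Sqstm1 had 532, 535 and 542 CPM in Stober50 and 410, 391 and 400 CPM in Control, without overlap (log2 0.42 ± 0.04 SE, adjusted p = 6.06e-08). Gabarap had 275, 278 and 269 CPM in Stober50 and 247, 246 and 237 CPM in Control, again without overlap (log2 0.17 ± 0.04 SE, adjusted p = 0.00371). Atg7 had 74.3, 74 and 71.4 CPM in Stober50 and 62.5, 67.5 and 64.8 CPM in Control, also without overlap (log2 0.17 ± 0.05 SE, adjusted p = 0.0194), a call lost without Stober50 replicate 1 (adjusted p = 0.0807), Stober50 replicate 2 (0.0681), Control replicate 1 (0.106) or else Control replicate 3 (0.0583). Atg4d had 20.3, 23.1 and 21.9 CPM in Stober50 and 18.7, 18.5 and 18.6 CPM in Control (log2 0.23 ± 0.07 SE, adjusted p = 0.0384), a call lost with the trend with gene length removed (adjusted p = 0.0744), without Stober50 replicate 2 (0.181), Stober50 replicate 3 (0.0837), Control replicate 1 (0.0946), Control replicate 2 (0.0967) or else Control replicate 3 (0.0855). The count of 4 was 2 without Stober50 replicate 2, Control replicate 1 or Control replicate 3. Tecpr1, called with both mesoporous particles, had 28.3, 26.7 and 27.3 CPM in Stober50 and 25.5, 25 and 26.8 CPM in Control (log2 0.09 ± 0.07, adjusted p = 0.476). Map1lc3b had a log2 fold change of 0.14 ± 0.05 (adjusted p = 0.0682), which passed when the trend with gene length was removed (adjusted p = 0.0136).

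With Stober500, 0 of 40 genes passed the edgeR test against a background of 0.00781%, and the groups did not overlap in 8 of 40 genes against 15.9% of all genes. DESeq2 and limma-voom also called 0, and 11 of 40 genes had an unadjusted p under 0.05, against 11.9% of all genes. Sqstm1 had 436, 431 and 420 CPM in Stober500 and 410, 391 and 400 CPM in Control, a log2 fold change of 0.10 (95% interval 0.03 to 0.18). All 3 Stober500 libraries of Sqstm1 were above the Control libraries, by a small margin. For Tecpr1 the log2 fold change was -0.06 (95% interval -0.20 to 0.09), and for Gabarap 0.10 (95% interval 0.02 to 0.17). Between the nonporous sizes, Stober50 against Stober500, 1 of 40 genes differed, higher with Stober50 (background 2.24%, with 1.41% higher and 0.828% lower). The groups did not overlap in 10 of 40 genes against 20% of all genes. The gene that passed was Sqstm1, with 532, 535 and 542 CPM in Stober50 and 436, 431 and 420 CPM in Stober500 (log2 0.32 ± 0.04 SE, adjusted p = 4.65e-06).

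At a nominal diameter of 500 nm, mesoporous MSN500 set against nonporous Stober500 changed 29 of the 40 genes, 12 up and 17 down, against a background of 39.4% (19.9% higher and 19.5% lower). Without Optn it was 28 of 39. The groups did not overlap in 30 of 40 genes, Optn included, against 49.7% of all genes. Tecpr1 had 93.6, 95.6 and 89.6 CPM in MSN500 and 26.6, 24.4 and 23.1 CPM in Stober500 (log2 1.91 ± 0.06 SE, adjusted p = 7.43e-18). Sqstm1 had 825, 796 and 826 CPM in MSN500 and 436, 431 and 420 CPM in Stober500 (log2 0.93 ± 0.04 SE, adjusted p = 6.62e-17). Neither gene had overlapping groups. Optn, at 19, 14 and 17 counts in MSN500 and 11, 4 and 2 counts in Stober500, had a fitted log2 fold change of 1.73 ± 0.42, given with no test for the same reason. Atg7 rose by log2 0.55 ± 0.05 (adjusted p = 1.71e-10). Among genes that fell, Ulk1 had 17.3, 17 and 17.9 CPM in MSN500 and 26.6, 26.8 and 23.9 CPM in Stober500, and Atg2a had 30, 30.2 and 32.3 CPM in MSN500 and 46.8, 46.4 and 41.6 CPM in Stober500, without overlap in either. Their log2 fold changes were -0.57 ± 0.07 (adjusted p = 2.8e-07) and -0.55 ± 0.06 (adjusted p = 5.51e-08), next to -0.61 ± 0.14 for Wipi1 (adjusted p = 0.000709) and -0.56 ± 0.07 for Calcoco1 (adjusted p = 8e-07). Of the LC3 and GABARAP genes, Gabarap, Map1lc3b and Gabarapl1 rose by 0.35 ± 0.04, 0.22 ± 0.05 and 0.16 ± 0.05 on the log2 scale (adjusted p = 9.65e-09, 0.000523 and 0.00684). Map1lc3a passed in the other direction with overlapping groups, at 6.15, 7.95 and 8.73 CPM in MSN500 and 9.58, 10.4 and 8.32 CPM in Stober500 (log2 -0.31 ± 0.11, adjusted p = 0.0344), a call lost with DESeq2 (adjusted p = 0.0513), without MSN500 replicate 1 (0.258), MSN500 replicate 2 (0.0602), Stober500 replicate 1 (0.0851) or else Stober500 replicate 2 (0.169).

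The pegylated and the bare mesoporous particle, MSN-PEG500 and MSN500, differed in 8 of 40 genes, 7 higher and 1 lower with the coat, against a background of 8.02% (4.1% higher and 3.92% lower). The groups did not overlap in 16 of 40 genes, against 27.9% of all genes. Epg5, at 33.1, 33.3 and 34.4 CPM in MSN-PEG500 and 27.8, 27.3 and 26.4 CPM in MSN500, was higher with the coat in every library (log2 0.31 ± 0.06 SE, adjusted p = 0.00237). Nbr1, at 108, 104 and 115 CPM in MSN-PEG500 and 89.7, 95.3 and 91.4 CPM in MSN500, was likewise higher without overlap (log2 0.24 ± 0.04 SE, adjusted p = 0.00134). These 2 calls held in all alternatives run. Across all genes the difference rose with exonic length (Spearman's rho 0.267 over 12797 genes, which are not independent replicates), and with that trend removed 5 of the 40 genes passed. The count was 3 without MSN500 replicate 1, 5 without MSN500 replicate 2 or 3, 3 without MSN-PEG500 replicate 1 and 4 without MSN-PEG500 replicate 3.

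Each of the other 6 calls was lost under at least 1 alternative. Tecpr1, at 72.9, 75.5 and 88.3 CPM in MSN-PEG500 and 93.6, 95.6 and 89.6 CPM in MSN500, was lower with the coat without overlap (log2 -0.24 ± 0.06 SE, adjusted p = 0.0105), a call lost without MSN-PEG500 replicate 1 (adjusted p = 0.0815). Atg13, at 135, 132 and 140 CPM in MSN-PEG500 and 105, 124 and 119 CPM in MSN500, was higher (log2 0.23 ± 0.06 SE, adjusted p = 0.0139), a call lost without MSN-PEG500 replicate 3 (adjusted p = 0.0737) or else MSN500 replicate 1 (0.122). Atg2a was higher by 0.23 ± 0.06 on the log2 scale (adjusted p = 0.029), a call lost with the trend with gene length removed (adjusted p = 0.144), without MSN-PEG500 replicate 1 (0.0854), MSN-PEG500 replicate 2 (0.11), MSN500 replicate 1 (0.117) or else MSN500 replicate 2 (0.104). Ulk2 (log2 0.19 ± 0.05, adjusted p = 0.0289) was lost with the trend with gene length removed (adjusted p = 0.0916), without MSN-PEG500 replicate 1 (0.061), MSN-PEG500 replicate 3 (0.138), MSN500 replicate 1 (0.123), MSN500 replicate 2 (0.0776) or else MSN500 replicate 3 (0.0768). Atg2b (log2 0.15 ± 0.04, adjusted p = 0.0302) was lost with only the groups compared (adjusted p = 0.0597), with the trend with gene length removed (0.352), without MSN-PEG500 replicate 1 (0.0686), MSN-PEG500 replicate 3 (0.117), MSN500 replicate 1 (0.0819), MSN500 replicate 2 (0.118) or else MSN500 replicate 3 (0.0901). Atg4c (log2 0.24 ± 0.07, adjusted p = 0.0384), whose groups overlapped, was lost with limma-voom (adjusted p = 0.0518), with only the groups compared (0.0789), without MSN-PEG500 replicate 1 (0.0939), MSN-PEG500 replicate 3 (0.223), MSN500 replicate 1 (0.202) or else MSN500 replicate 3 (0.0979).

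For Sqstm1, Gabarap, Map1lc3b and Atg3, which rose with both mesoporous particles, the difference between the coated and the bare particle did not pass the test, and the intervals show how large one could be. The 95% interval of the log2 fold change, MSN-PEG500 over MSN500, was -0.13 to 0.02 for Sqstm1, -0.13 to 0.02 for Gabarap, -0.01 to 0.18 for Map1lc3b and -0.16 to 0.00 for Atg3. For Atg9a, which fell with both, it was -0.18 to 0.08. The 3 MSN-PEG500 libraries of Map1lc3b, at 56.9, 56 and 55.3 CPM, lay above the MSN500 libraries at 52.5, 53.2 and 53 CPM although the difference did not pass (adjusted p = 0.293).

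**Figure D4:**
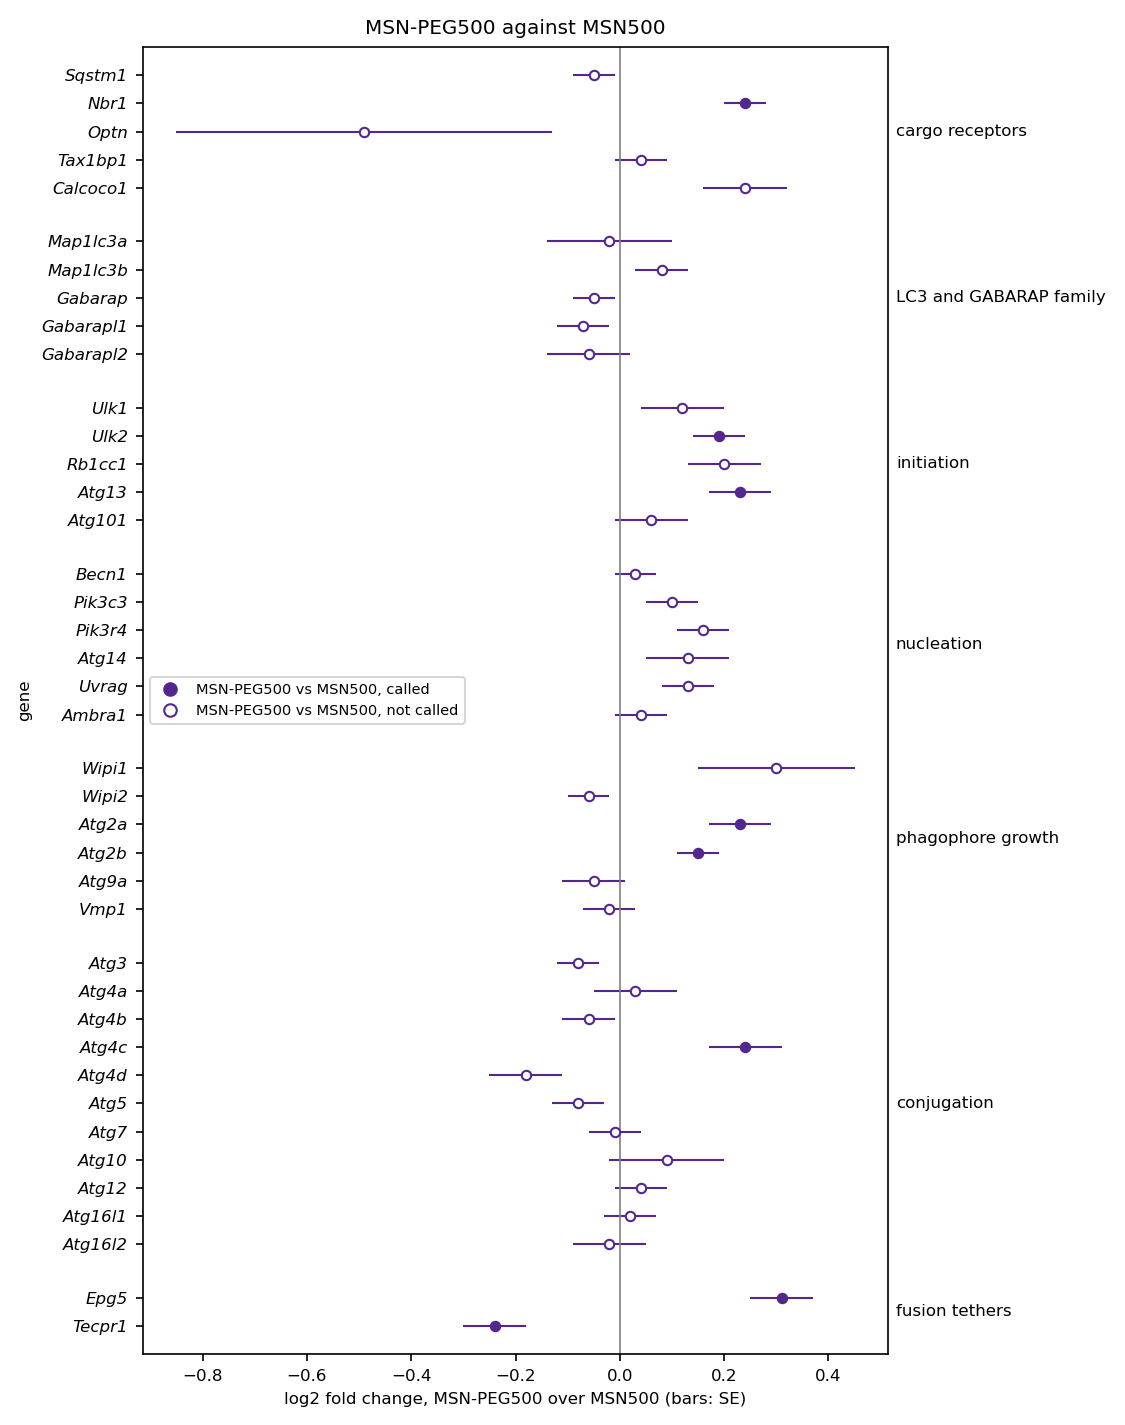
Log2 fold change of each of the 40 genes in MSN-PEG500 over MSN500, by step (bars are SE, filled points passed the test). Epg5 at 0.31 and Nbr1 at 0.24 lay to the right, and Tecpr1 at -0.24 was the 1 called gene to the left.

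The surrounding pathway was read from 115 further genes, of which 109 were tested. They were chosen by function, also with earlier results of these data known. With MSN500, 51 rose and 22 fell, 67% against the background of 42.9%, and with MSN-PEG500 48 rose and 17 fell, 59.6% against 34.4%. With Stober50 11 rose and 4 fell, 13.8% against 7.57%, and with Stober500 0 passed, against 0.00781%. In the control of mTORC1 and AMPK, 15 of 33 rose and 10 fell with MSN500, 75.8% called against 42.9%. Rragd, a Rag GTPase that docks mTORC1 on lysosomes, had 55, 66 and 69 counts in MSN500 and 40, 34 and 59 counts in MSN-PEG500, against 2, 4 and 2 counts in Control. It was near the detection limit in Control and plainly present in all 6 mesoporous libraries, through which it passed the filter on low counts. The 15 and 51 rises with MSN500 and the 48 with MSN-PEG500 include Rragd and were not counted again without it. Rragc, the paralog of Rragd, had 255 ± 10.1 CPM in MSN500 and 144 ± 2.04 CPM in Control (log2 0.82, adjusted p = 1.11e-14). Fnip2, a cofactor of folliculin, which acts on these GTPases, had 221 ± 8.66 CPM in MSN500 and 79.5 ± 3.94 CPM in Control (log2 1.47, adjusted p = 4.19e-12). Among those that fell was Deptor, an inhibitor within the mTOR complexes, with 19.6 ± 1.52 CPM in MSN500 and 35.1 ± 1.57 CPM in Control (log2 -0.84, adjusted p = 5.05e-11). Sesn1 and Castor2, whose products act upstream of mTORC1, fell by 0.70 and 0.55 on the log2 scale (adjusted p = 4.61e-12 and 1.78e-09).

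Fusion with lysosomes gave the most one-sided counts of these lists, 13 of 24 up and 1 down with MSN500, and 13 up and 1 down with MSN-PEG500. Of all genes, 21.6% were called higher and 21.2% lower with MSN500, and 17.5% and 16.9% with MSN-PEG500. Arl8b, a GTPase that moves lysosomes and recruits the HOPS tether, had 544 ± 10.3 CPM in MSN500 and 280 ± 7.34 CPM in Control (log2 0.96, adjusted p = 1.65e-14). Wdr91, a RAB7 effector on endosomes, had 126 ± 3.4 CPM in MSN500 and 67.2 ± 2.05 CPM in Control (log2 0.90, adjusted p = 8.08e-16), and Arl8a, the paralog of Arl8b, 115 ± 2.04 CPM in MSN500 and 71.6 ± 3.68 CPM in Control (log2 0.69, adjusted p = 3.05e-13). Vps16, a subunit of HOPS, was the 1 that fell (log2 -0.11 ± 0.04, adjusted p = 0.0363). Of 22 further initiation and phagophore genes, 13 rose and 4 fell with MSN500, 77.3% called against 42.9% of all genes. Bcl2l1, whose product BCL-XL binds and restrains the protein of Becn1, had 122 ± 2.37 CPM in MSN500 and 49.7 ± 2.45 CPM in Control (log2 1.30, adjusted p = 4.77e-14). Tmem41b, a scramblase that acts with VMP1, had 25.4 ± 0.869 CPM in MSN500 and 16.3 ± 0.612 CPM in Control (log2 0.63, adjusted p = 2.12e-08). Trp53inp1, which encodes an LC3-binding stress protein, fell, with 5.06 ± 0.42 CPM in MSN500 and 9.94 ± 0.347 CPM in Control (log2 -0.97, adjusted p = 1.23e-06), while its paralog Trp53inp2 rose (log2 0.63 ± 0.08, adjusted p = 3.53e-07). Wdr45, a relative of the WIPI genes, and Rubcnl fell by 0.44 and 0.30 on the log2 scale (adjusted p = 0.000271 and 0.0407).

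Other selective receptors gave 5 rises and 2 falls among 17 with MSN500, 41.2% called against the background of 42.9%. Ncoa4, the receptor for ferritin, had 6.53 ± 0.587 CPM in MSN500 and 4.15 ± 0.639 CPM in Control (log2 0.66, adjusted p = 0.00053), and Tollip 145 ± 3.9 CPM in MSN500 and 97.6 ± 2.7 CPM in Control (log2 0.57, adjusted p = 3.22e-12). Retreg1, a receptor for endoplasmic reticulum, rose by log2 0.26 (adjusted p = 1.78e-05), while Ccpg1, another, fell by 0.47 (adjusted p = 5.95e-08) and Hdac6 by 0.17 (adjusted p = 0.0133). Of 13 regulators of autophagy gene transcription, 5 rose and 5 fell with MSN500, 76.9% called against 42.9%. Nfe2l2, which encodes NRF2, a known activator of Sqstm1, had 253 ± 6.29 CPM in MSN500 and 191 ± 7.82 CPM in Control (log2 0.40, adjusted p = 2.02e-08). Hif1a and Ddit3, which encodes CHOP, rose by log2 0.50 and 0.54 (adjusted p = 2e-08 and 7.79e-05). Foxo3, Foxo4 and Hdac4 fell by 0.30, 0.33 and 0.31 (adjusted p = 3.77e-05, 0.00279 and 0.00185). Between MSN-PEG500 and MSN500, 7 of the 109 genes were higher with the coat and 4 lower, 10.1% against 8.02%. Mitf, a relative of TFEB, had 134 ± 0.908 CPM in MSN-PEG500 and 113 ± 9.72 CPM in MSN500 (log2 0.24, adjusted p = 0.00235). Bloc1s1, a subunit of the BORC complex that positions lysosomes, had 30.5 ± 1.14 CPM in MSN-PEG500 and 37.3 ± 1.16 CPM in MSN500 (log2 -0.29, adjusted p = 0.00476), and Vamp8, a SNARE of autophagosome fusion, 133 ± 5.8 CPM in MSN-PEG500 and 151 ± 4.92 CPM in MSN500 (log2 -0.18, adjusted p = 0.0149). Castor2, Tbc1d14, Tbc1d5, Sh3glb1, Retreg1 and Wdfy3 were higher by log2 0.14 to 0.21, and Akt1s1 and Phb2 lower by 0.19 and 0.14.

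**Figure D5:**
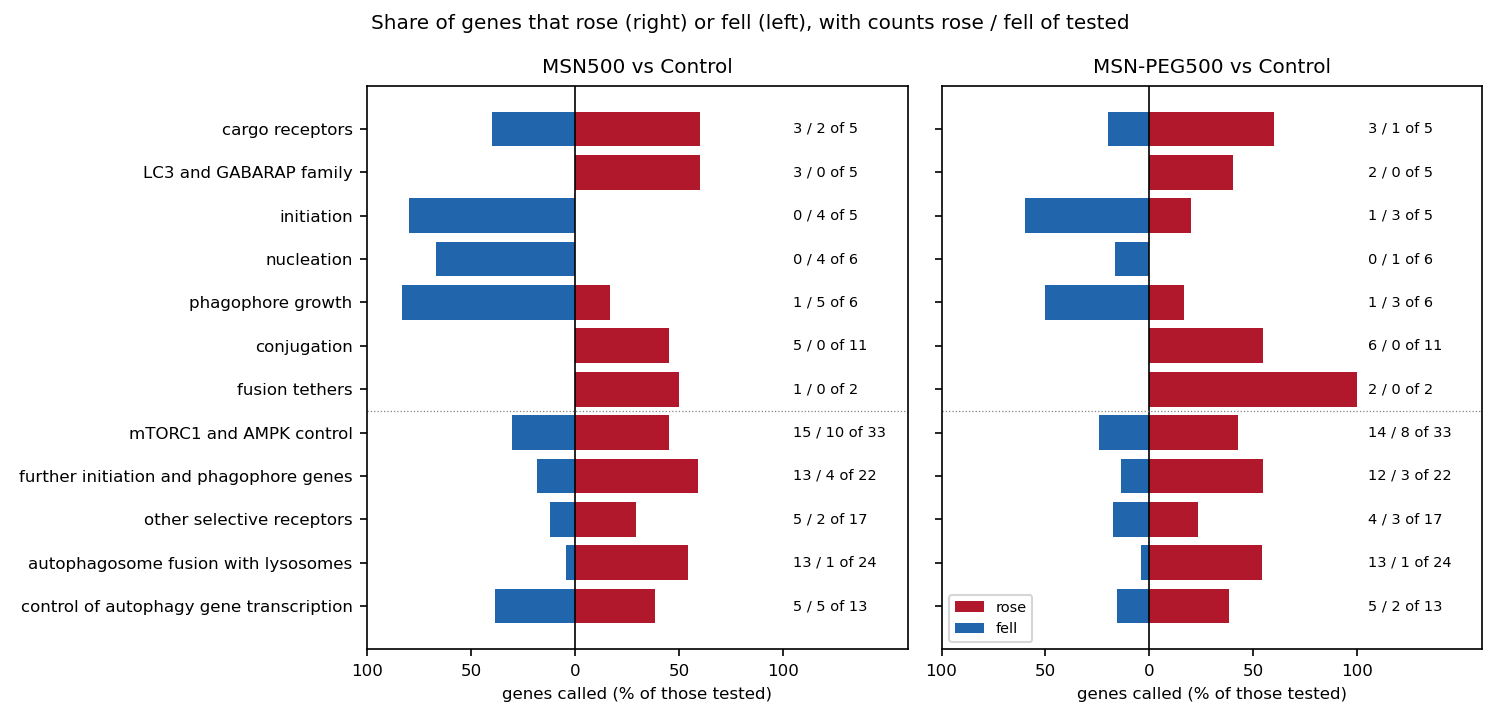
Share of the genes tested that rose (right) or fell (left) with MSN500 and with MSN-PEG500 over Control, as a percentage of each list, with the counts printed. The steps of the 40 genes stand above the dotted line and the further pathway lists below it. The rises of the cargo receptors include Optn, and those of mTORC1 and AMPK control include Rragd. Both genes passed the filter on low counts through the groups in which they were high. With MSN500, initiation and nucleation held 0 rises, and conjugation and the LC3 and GABARAP family held 0 falls. Over all genes tested, 21.6% rose and 21.2% fell with MSN500, and 17.5% and 16.9% with MSN-PEG500.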

How the data were processed

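The authors deposited whole-number counts per gene of alignments sharing 1 base or more with it, per the file headers, and FPKM values scaled by exonic length and library reads. The submitters' processing notes name Novoalign 2.08.03 and limma 3.28.21, DESeq2, and the genome builds mm10 and GRCm38. Whether counting used strand is not given in the sources used. The authors' deposited log2 exon ratios and their scores (-10 log10 of a corrected chi-square p in which replicates were not modelled) are used only where named. Count columns were matched to samples by the column names in the labels, and 0 columns belonged to other samples.

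Counts were tested with edgeR 4.0.16 in R 4.3.3. Of 13342 genes, 12798 passed filterByExpr, and a robust quasi-likelihood fit of 5 group means took in all 15 libraries, with TMM factors of 0.974 to 1.02 (common biological coefficient of variation 0.0418). Tests were two-sided, with Benjamini-Hochberg adjustment over the 12798 genes in each of 7 comparisons and a threshold of 0.05. CPM values use TMM library sizes, and log2 CPM a prior count of 2. SE is the log2 fold change divided by the square root of F, and intervals are at 95%. FPKM values served to compare levels between genes. Library totals of 17683003 to 27253289 counts limit mainly Optn and Rragd. Within groups the replicates differed by 2.19 to 6.81 chi-square per degree of freedom, so none was treated as a duplicate. Alternatives were RLE and upper quartile scaling, no filter, DESeq2 1.42.0, limma-voom (limma 3.58.1), the compared groups alone, a replicate block, removal of a trend with exonic length, and leaving out each library.

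The 40 members and the further lists were chosen with earlier results of these data known. Genes were named by a rule: in each comparison of a particle with Control up to 5 called genes in each direction, between particles up to 4, all LC3 and GABARAP genes and receptors, and up to 3 per further list; other members were placed by their call. Further list genes were matched by symbol or, for Castor2, Rubcnl and Retreg1 among those named, by identifier under an older symbol, and Vamp7 was not analysed here. Positions were checked against GENCODE M21 (GRCm38). Promoter sequences are RefSeq's, on GRCm38.p6, and protein sequences were not used here.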

Additional observations from a re-analysis of the deposited data

Results flagged for a closer look

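The exon ratios outside the gene-level comparisons held values past a p of 0.05 for 2 of the 40 genes. In the authors' deposited table the exon segment of Map1lc3a at chr2:155276289-155276640 (GRCm38), which overlaps the first annotated exon of the gene, had a log2 ratio of -1.62 for MSN-PEG500 over MSN500 (score 49.3), after correction for the gene's overall level. The authors' deposited table gives -1.74 for MSN-PEG500 over Stober50 (score 63.4) and -1.24 for MSN-PEG500 over Stober500 (score 21). Its ratio in the authors' deposited table for Control over MSN-PEG500 runs the other way round and is 1.25 (score 25.2), so the segment was lower in MSN-PEG500 in each of the 4. For Ulk2, the authors' deposited table gives -1.10 for MSN-PEG500 over Stober50 (score 61.6) at the segment chr11:61854489-61855072, which overlaps the first exon. Of 13341 genes, the authors' deposited table holds 161 to 313 past that p in each of the 4 comparisons with MSN-PEG500. In each of the 6 without it there are 3 to 29. The 2 members are counted over all these comparisons together, and the share of all genes counted that way was not computed. Replicates were not modelled in these scores, and the part of a difference between libraries was not tested.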

How the results depend on the processing

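No member called in a comparison changed direction under an alternative, among those named there. Members that were not called did, such as Map1lc3a, at log2 -0.13 to 0.10 for MSN500 over Control and -0.12 to 0.05 for MSN-PEG500 over Control. The side of the threshold was kept in 436 of 450 alternatives for MSN500 over Control, 383 of 405 for MSN-PEG500 over Control, 428 of 450 for MSN500 over Stober500 and 225 of 255 for MSN-PEG500 over MSN500. Leaving out 1 library at a time gave 26 to 28 called members for MSN500 over Control, 19 to 24 for MSN-PEG500 over Control, 24 to 30 for MSN500 over Stober500, 3 to 7 for MSN-PEG500 over MSN500, 2 to 3 for Stober50 over Control and 1 to 2 for Stober50 over Stober500. Removing the length trend left 5 members for MSN-PEG500 over MSN500, with or without the replicate block. For Stober50 over Stober500 the count was 2 with no filter, with DESeq2, with the replicate block, with the length trend removed and with both. Deviations of libraries that share a replicate number had correlations of -0.164 to 0.0589, against -0.113 to 0.179 for different numbers. With 3 libraries a group, this cannot tell whether the numbers mark a shared culture or day. Upper quartile scaling moved the median gene by at most 0.04 (log2) and the share of rises among all called genes to 40.9% for MSN-PEG500 over Control, where it was 50.9%. For Stober50 over Control that share was 67.5% with the length trend removed and 50.9% in the fit reported. Depth limits Optn and Rragd, and mRNA levels here rest on 3 libraries a group.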
